A study of Homo sapiens with 6 samples.

Results

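Basement membranes are thin extracellular sheets, and 10 genes that encode their components were followed here through the silencing of OGT in LX-2 cells. The genes were chosen by symbol, out of 16907 symbols counted: COL4A1 and COL4A2 (collagen IV), LAMA4, LAMB1 and LAMC1 (laminin chains), NID1 and NID2 (nidogens), HSPG2 (perlecan), AGRN (agrin) and COL18A1 (collagen XVIII). LX-2 is an immortalized line of human hepatic stellate cells, the liver cells that become matrix-producing myofibroblasts. The siControl group received 20 nM of a non-targeting small interfering RNA for 72 h, and the siOGT group received 20 nM of a pool of small interfering RNAs against OGT for 72 h. The OGT protein puts O-GlcNAc, a sugar, on serines and threonines of nuclear and cytoplasmic proteins. Each group had 3 libraries of polyadenylated RNA, numbered so that a siControl and a siOGT library of the same number form a pair, and the study describes the numbers as independent experiments on this 1 cell line. All comparisons rest on 1 pool against 1 control, in cells that were not otherwise treated.

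A basement membrane is built from networks of laminin trimers and of collagen IV, which nidogens and heparan sulfate proteoglycans link to each other, and cells hold on to it through integrins, dystroglycan and other receptors. Laminin trimers assemble inside the cell from an α, a β and a γ chain, and collagen IV protomers assemble from 3 α chains, so the chains of one trimer are commonly made together. In healthy liver the sinusoids lack a continuous basement membrane. In fibrotic liver collagen IV and laminins accumulate along the sinusoids, and stellate cells are among their sources.

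COL4A1 and COL4A2 lie head to head on chromosome 13 and share a promoter, so the sequence between them is shown first. The starts of the RefSeq transcripts (GRCh38.p14) were 127 bases apart, and the 126 bases between them lie at chr13:110307158-110307283, printed here on the plus strand, which is the strand of COL4A2. For contrast, the 250 bases before the start are shown for COL18A1, the member with the largest fall (chr21:45404915-45405164, plus strand), for LAMC1, whose fold change was above 0 (chr1:183023170-183023419, plus strand), and for the paralogs NID1 (chr1:236065091-236065340, minus strand) and NID2 (chr14:52069060-52069309, minus strand), of which only NID2 was called. Capitals mark a CCAAT box (CCAAT, or ATTGG on the other strand) and a GC box (GGGCGG, or CCGCCC on the other strand).
between COL4A1 and COL4A2: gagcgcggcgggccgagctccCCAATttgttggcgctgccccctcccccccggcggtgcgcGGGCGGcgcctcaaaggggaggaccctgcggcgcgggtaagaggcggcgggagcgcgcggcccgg
COL18A1: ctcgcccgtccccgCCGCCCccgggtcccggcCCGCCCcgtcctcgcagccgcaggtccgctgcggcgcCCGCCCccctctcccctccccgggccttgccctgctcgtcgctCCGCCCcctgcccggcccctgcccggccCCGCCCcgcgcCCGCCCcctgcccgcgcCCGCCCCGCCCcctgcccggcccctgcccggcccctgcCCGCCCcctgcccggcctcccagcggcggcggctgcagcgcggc
LAMC1: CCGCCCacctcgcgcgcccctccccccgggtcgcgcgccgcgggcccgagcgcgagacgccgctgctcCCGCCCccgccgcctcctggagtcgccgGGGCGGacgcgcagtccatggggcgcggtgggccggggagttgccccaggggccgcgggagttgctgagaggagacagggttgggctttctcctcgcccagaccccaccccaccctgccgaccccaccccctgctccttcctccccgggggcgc
NID1: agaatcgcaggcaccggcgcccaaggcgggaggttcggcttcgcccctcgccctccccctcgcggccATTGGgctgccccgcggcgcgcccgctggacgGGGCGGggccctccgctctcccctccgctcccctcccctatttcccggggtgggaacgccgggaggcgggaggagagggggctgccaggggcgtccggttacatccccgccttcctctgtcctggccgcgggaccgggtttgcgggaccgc
NID2: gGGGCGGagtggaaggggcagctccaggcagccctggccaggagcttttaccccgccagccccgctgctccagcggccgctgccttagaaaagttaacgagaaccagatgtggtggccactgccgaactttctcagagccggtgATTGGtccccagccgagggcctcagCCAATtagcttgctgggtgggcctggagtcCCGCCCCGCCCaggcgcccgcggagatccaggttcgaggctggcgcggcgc

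Of the 10 members, 9 matched a RefSeq promoter window of 300 bases (250 before the start and 50 from it on), with 10 windows in all because COL18A1 has a pair of them. GC boxes were found in 8 of these 9 members, beside 45% of the 35116 windows of all genes, and CCAAT boxes in 4 of 9, beside 34.6%. The windows of COL4A1 and COL4A2 share 226 bases, so the CCAAT box counted for each is the same one. TATAAA, searched on both strands, was found for 1 member (the second COL18A1 window) beside 11.5% of all windows. GGAATG, the core recognised by TEAD factors, was found in the windows of 0 of the 9 members, beside 14% of all windows. These letters occur in many promoters, and their presence or absence in a window is a description of sequence only.

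The libraries held 25996770 to 27966801 expected counts each, and every member had at least 744 counts in every library, so counting error was small beside the differences between replicates. OGT stood at 177, 137 and 121 CPM (read counts scaled to the library total and a TMM factor) in siControl libraries 1, 2 and 3, against 39.9, 27.0 and 29.2 CPM in siOGT, a log2 fold change (log2 FC) of -2.18 ± 0.073 (SE, edgeR adjusted p = 2.71e-12). VIM (mean 3200.3 CPM in siControl), COL1A1 (2658 CPM), THY1 (305 CPM) and PDGFRB (123 CPM) were abundant. ACTA2, which the study uses as a marker of myofibroblastic stellate cells, was low, with means of 6.55 CPM in siControl and 7.58 CPM in siOGT. It was higher in siOGT in 2 of 3 pairs and was not called (log2 FC 0.25). DES and HAND2 stayed under 1 CPM, and LRAT had too few counts to test. Of 11 testable stellate and mesenchymal markers, 6 were called lower in siOGT and 0 higher, beside 12.7% lower and 12.7% higher over all genes tested. The summed level of the listed markers was 6694 to 8123 CPM in siControl and 5746 to 6991 CPM in siOGT. The part of these changes in the results on the members was not tested. The summed level of markers of endothelial cells, which also make basement membrane, was 71.6 to 77.3 CPM in siControl and 76.5 to 81.6 CPM in siOGT, nearly all of it from TIE1. PECAM1 and CDH5, which define that cell type, had means under 2 CPM in both groups, and VWF, the 1 endothelial marker of 6 tested that was called, was lower (log2 FC -0.93, edgeR adjusted p = 0.0108). Hepatocyte markers summed to 3.55 to 4.56 CPM against 3.58 to 3.85 CPM, with ALB too low to test. Epithelial markers summed to 988 to 1271 CPM against 801 to 1152 CPM, mostly KRT8 and KRT18, with EPCAM too low to test and only KRT8 called of 7 tested (log2 FC -0.35, edgeR adjusted p = 0.00101). Leukocyte markers summed to 7.99 to 9.94 CPM against 5.97 to 9.88 CPM.

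RNA of most of the 10 basement membrane genes was lower in siOGT. COL4A1, COL4A2, NID2, HSPG2, AGRN and COL18A1 were called lower in siOGT (6 of 10, edgeR quasi-likelihood test with pairing, adjusted p at most 0.05), 0 were called higher, and LAMA4, LAMB1, LAMC1 and NID1 were not called. Over all 14853 genes tested, 12.7% were called lower and 12.7% higher (25.4% in all). Among the 5983 genes at least as abundant as LAMA4, the least abundant member, 17.1% were called lower and 15.9% higher. The median log2 FC of the 10 members was -0.35, beside 0.01 for all genes tested. In these bulk samples, fewer cells of a type and less RNA per cell cannot be told apart.

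**Figure D1:**
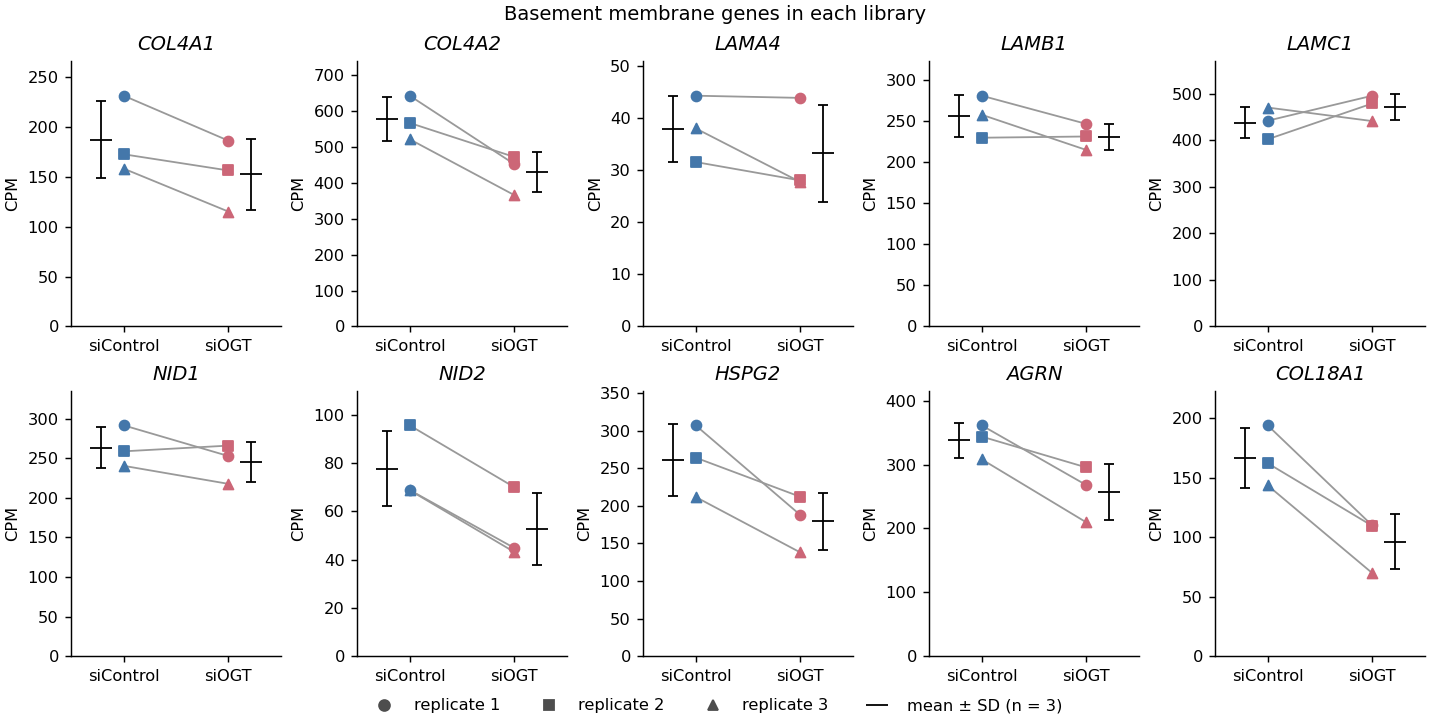
CPM (vertical axes, starting at 0) of the 10 basement membrane genes in 3 siControl and 3 siOGT libraries, with a grey line joining the libraries of 1 pair and black bars for the mean ± SD of each group. Lines fall in all 3 pairs for 7 of the genes, while those of LAMB1, LAMC1 and NID1 run in both directions.

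Both chains of the main collagen IV protomer were lower. COL4A2 (chr13:110305812-110513209, plus strand, GENCODE 44) stood at 643, 567 and 522 CPM in siControl libraries 1, 2 and 3, and at 452, 472 and 366 CPM in siOGT. Every siOGT library lay below every siControl library, and the mean fell from 577 ± 61.3 to 430.1 ± 56.5 CPM (SD, n = 3), a log2 FC of -0.43 (95% interval -0.58 to -0.28, edgeR adjusted p = 3.04e-04). COL4A1 (chr13:110148963-110307157, minus strand), which supplies the other chain, stood at 231, 172 and 158 CPM in siControl and 186, 156 and 115 CPM in siOGT. The groups overlapped because library 1 was the highest in both, yet siOGT was the lower library in each pair. The mean of COL4A1 went from 187 ± 38.7 to 152 ± 35.7 CPM, a log2 FC of -0.30 (95% interval -0.45 to -0.16, edgeR adjusted p = 0.00419). Without replicate 1 the COL4A1 call was lost, at a log2 FC of -0.30 and an edgeR adjusted p of 0.0529.

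The laminin chains showed smaller differences, and none of these 3 genes was called. LAMC1 (chr1:183023420-183145592, plus strand), the γ chain shared by most laminins, stood at 442, 402 and 471 CPM in siControl and 496, 479 and 442 CPM in siOGT. Library 3 went against the other pairs, the groups overlapped, and the log2 FC was 0.11 (95% interval -0.05 to 0.26, edgeR adjusted p = 0.310). LAMB1 (chr7:107923799-108003213, minus strand), its β partner, stood at 281, 230.0 and 258 CPM in siControl and 247, 232 and 215 CPM in siOGT. The values of pair 2 were nearly equal, and the log2 FC was -0.15 (95% interval -0.29 to -0.0020, edgeR adjusted p = 0.131). LAMA4 (chr6:112107931-112254939, minus strand), the α chain typical of vascular and mesenchymal cells, was the least abundant member, at 44.3, 31.6 and 38.0 CPM in siControl and 43.9, 28.1 and 27.7 CPM in siOGT. Its libraries of pair 1 were nearly equal and that of siOGT was lower in the others, with a log2 FC of -0.21 (95% interval -0.39 to -0.03, edgeR adjusted p = 0.0765). These results changed when 1 replicate was left out, which also estimates the variance anew. LAMA4 was called lower without replicate 1 (log2 FC -0.32, edgeR adjusted p = 0.0488), LAMB1 lower without replicate 2 (log2 FC -0.23, edgeR adjusted p = 0.0491) and LAMC1 higher without replicate 3 (log2 FC 0.20, edgeR adjusted p = 0.0293). With all replicates but no filter on low counts, LAMA4 was called lower too (log2 FC -0.21, edgeR adjusted p = 0.0458).

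The nidogens, paralogs that bridge the laminin and collagen IV networks, gave unlike values. NID2 (chr14:52004809-52069059, minus strand) stood at 68.9, 95.7 and 68.8 CPM in siControl and 44.9, 70.1 and 43.2 CPM in siOGT. Library 2 was the highest of its group on both sides, so the groups overlapped, but the fall was seen in each pair. The mean of NID2 went from 77.8 ± 15.5 to 52.7 ± 15.1 CPM, a log2 FC of -0.58 (95% interval -0.72 to -0.43, edgeR adjusted p = 1.76e-05). NID1 (chr1:235975830-236065109, minus strand) stood at 292, 259 and 241 CPM in siControl and 253, 266 and 218 CPM in siOGT. Pair 2 ran the other way from the rest, and NID1 was not called (log2 FC -0.10, 95% interval -0.25 to 0.04, edgeR adjusted p = 0.296). Its log2 FC was -0.05 without replicate 1 and -0.18 without replicate 2, again not called.

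All 3 proteoglycan core genes were lower, and COL18A1 had the largest fall among the members. COL18A1 (chr21:45405165-45513720, plus strand) encodes a collagen that carries heparan sulfate and whose end releases the fragment endostatin. It stood at 194, 162 and 144 CPM in siControl and 109.8, 109.5 and 69.8 CPM in siOGT, with no overlap. Its mean fell by 42.9% in the paired fit, from 167 ± 25.5 to 96.4 ± 23.0 CPM, a log2 FC of -0.81 (95% interval -0.97 to -0.64, edgeR adjusted p = 2.34e-06). HSPG2 (chr1:21822244-21937310, minus strand), the gene of perlecan, stood at 307, 264 and 212 CPM in siControl and 188, 212 and 138 CPM in siOGT. The lowest siControl library and the highest siOGT library met at the same level, and the log2 FC was -0.55 (95% interval -0.71 to -0.39, edgeR adjusted p = 5.70e-05). AGRN (chr1:1020120-1056118, plus strand), whose product agrin binds laminin and dystroglycan, stood at 362, 344 and 308 CPM in siControl and 268, 296 and 209.6 CPM in siOGT. The groups of AGRN did not overlap, and the log2 FC was -0.40 (95% interval -0.55 to -0.25, edgeR adjusted p = 6.22e-04).

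**Figure D2:**
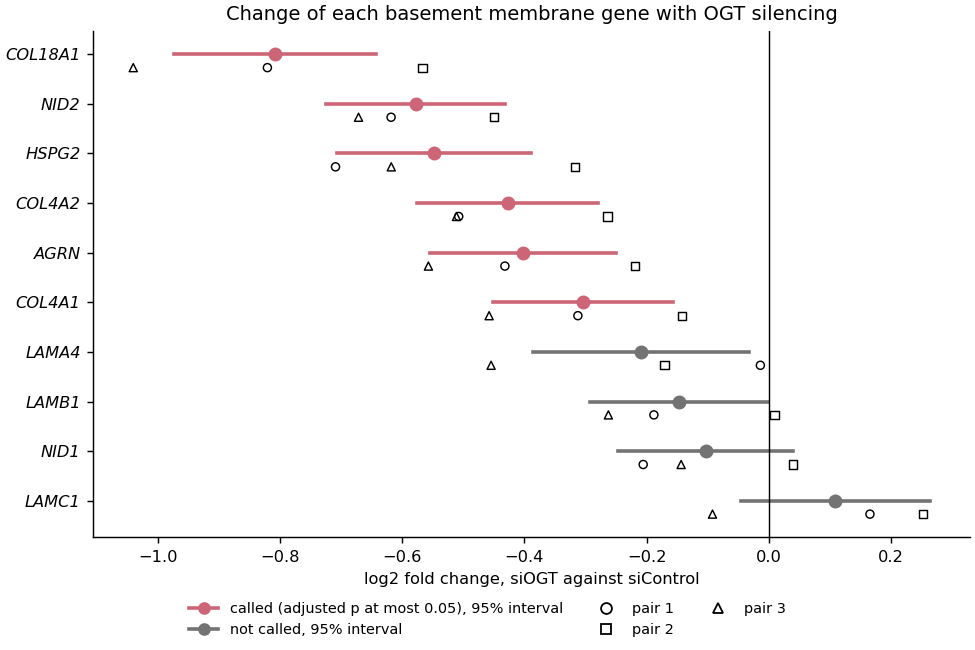
Log2 FC of siOGT against siControl for each gene (filled points with 95% intervals from the paired edgeR fit) and the log2 ratio in each of the 3 pairs (open symbols), ordered by log2 FC. The 6 called genes (red) run from -0.81 for COL18A1 to -0.30 for COL4A1, and the squares of pair 2 lie to the right of the other pairs for 9 of the 10 genes.

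Within pairs, 9, 7 and 10 of the 10 members were below 0 in pairs 1, 2 and 3, beside 50.4%, 49.1% and 48.7% of all genes tested. The median log2 ratio of the members was -0.37 in pair 1, -0.19 in pair 2 and -0.48 in pair 3. Pair 2 held the highest ratio of 9 members and pair 3 the lowest ratio of 8. OGT RNA left in siOGT was 22.5%, 19.7% and 24.1% of the paired siControl level in pairs 1, 2 and 3. A relation between the OGT left and the ratios of the members was not tested. The summed level of the 10 genes was 2865, 2528 and 2419 CPM in siControl and 2289, 2321 and 1844 CPM in siOGT. Of the 10 members, 7 were lower in every pair, beside 26.6% of all genes tested, and 3 (COL4A2, COL18A1 and AGRN) had every siOGT library below every siControl library, beside 11.8% of all genes tested.

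The calls rested on the pairing. Fitted without it, edgeR called 0 of the 10 members (5 had an unadjusted p of at most 0.05) and only 0.397% of all genes lower, with log2 FC values close to the paired ones, from -0.79 for COL18A1 to -0.30 for COL4A1 among the 6 genes. The edgeR adjusted p without pairing was 0.0672 for COL18A1, 0.118 for COL4A2, 0.150 for HSPG2, 0.163 for AGRN, 0.186 for NID2 and 0.427 for COL4A1. DESeq2 called 6 members lower with pairing, beside 8.74% of all genes, and 3 without it (COL4A2, COL18A1 and HSPG2), beside 3.1%.

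Ratios between members of one library do not depend on how libraries are scaled, and 4 were examined. NID1 counts were 4.23, 2.70 and 3.50 times those of NID2 in siControl and 5.64, 3.80 and 5.04 times in siOGT. The ratio was higher in siOGT in 3 of 3 pairs, by 0.48 ± 0.059 on the log2 scale (mean and SD of 3 pairs). LAMB1 relative to LAMC1 was lower in siOGT in each pair, with a mean log2 difference of -0.26 ± 0.092, and its siOGT libraries (0.498, 0.483 and 0.487) all lay below its siControl libraries (0.636, 0.572 and 0.548). LAMA4 relative to LAMC1 differed by -0.32 ± 0.13, also lower in each pair, with overlapping groups. COL4A1 relative to COL4A2 differed by 0.12 ± 0.071 and was higher in siOGT in each pair, also with overlapping groups. With 3 pairs the two-sided exact sign-flip permutation test cannot go below p = 0.25, which is the value of all 4 ratios (0.25 after Benjamini-Hochberg adjustment over the 4), so this test could not separate any of them from the spread between pairs. Unpaired, the exact permutation p was 0.1 for LAMB1/LAMC1, the smallest that 3 against 3 allows. It was 0.2 for NID1/NID2, 0.3 for LAMA4/LAMC1 and 0.5 for COL4A1/COL4A2. After Benjamini-Hochberg adjustment over the 4, the unpaired permutation p was 0.4 for LAMB1/LAMC1.

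**Figure D3:**
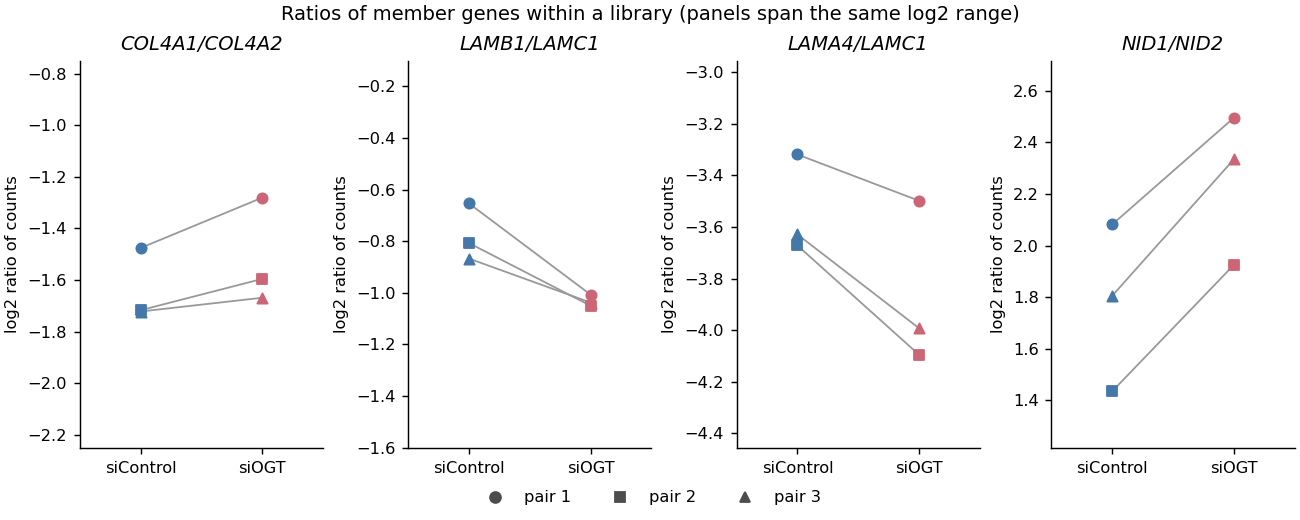
Log2 ratio of counts between members within each library, with lines joining the libraries of 1 pair and panels spanning the same log2 range. The 3 lines of a panel run the same way in all 4 panels, and the NID1/NID2 line is the steepest within each pair, rising by 0.41, 0.49 and 0.53.

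Levels of different genes were set side by side only per length, as CPM per kilobase of all annotated exons of a gene (GENCODE 44). In siControl LAMC1 (51.9 ± 4.06 CPM per kilobase) and NID1 (45.4 ± 4.46) led and overlapped each other. AGRN (31.4 ± 2.52) and COL4A2 (29.9 ± 3.18) followed and also overlapped, and then COL18A1 (19.7 ± 3.02). HSPG2 (14.4 ± 2.63), LAMB1 (13.8 ± 1.38), COL4A1 (12.8 ± 2.64) and NID2 (12.5 ± 2.50) could not be ordered beyond their spread, and LAMA4 (3.17 ± 0.53) was lowest. In siOGT the means on this scale were 55.9 for LAMC1, 42.3 for NID1, 24.0 for AGRN, 22.3 for COL4A2, 12.4 for LAMB1, 11.4 for COL18A1, 10.4 for COL4A1, 9.89 for HSPG2, 8.48 for NID2 and 2.77 for LAMA4. The order depended on the length used: per kilobase of the longest transcript, COL4A2 was first in siControl at 89.5 ± 9.51 and LAMB1 stood at 45.4 ± 4.54, beside 55.3 ± 4.32 for LAMC1, and LAMA4 was again lowest at 5.26 ± 0.88.

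The rest of the pathway was read through 6 lists that hold 104 further genes, of which 95 could be tested. In all, 33 were called lower in siOGT and 5 higher, beside 12.7% lower and 12.7% higher over all genes tested. These lists were put together with earlier results of these data known, and without pairing edgeR called 1 of their genes lower and 0 higher. The counts without replicate 1 given below stand beside fewer calls over all genes. Those went from 1881 to 945 lower and from 1885 to 858 higher.

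Among the other collagen IV, laminin and basement membrane zone chains, 6 of 14 genes tested were called lower and 1 higher (median log2 FC -0.31). The count of genes lower was 4, 5 and 4 without replicates 1, 2 and 3, and the call of the gene that was higher was lost without replicate 1. The largest fall was that of COL7A1, the anchoring fibril collagen, at 34.2, 27.2 and 22.4 CPM in siControl and 20.1, 16.1 and 10.9 CPM in siOGT (log2 FC -0.85, edgeR adjusted p = 4.06e-06). LAMA5, the broadly expressed laminin α chain, stood at 240.1, 183 and 187 CPM in siControl and 169, 118 and 88.4 CPM in siOGT (log2 FC -0.74, edgeR adjusted p = 1.42e-05). The fall of LAMA5 without overlap stands beside the uncalled values of its usual partners LAMB1 and LAMC1. LAMB2, a β chain that can take the place of LAMB1, was lower (log2 FC -0.20, edgeR adjusted p = 0.0338), and COL4A5, LAMA1 and LAMA3 were called lower as well. LAMB3, a chain of epithelial laminin, was higher, with a log2 FC of 0.28 (edgeR adjusted p = 0.0159).

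**Figure D4:**
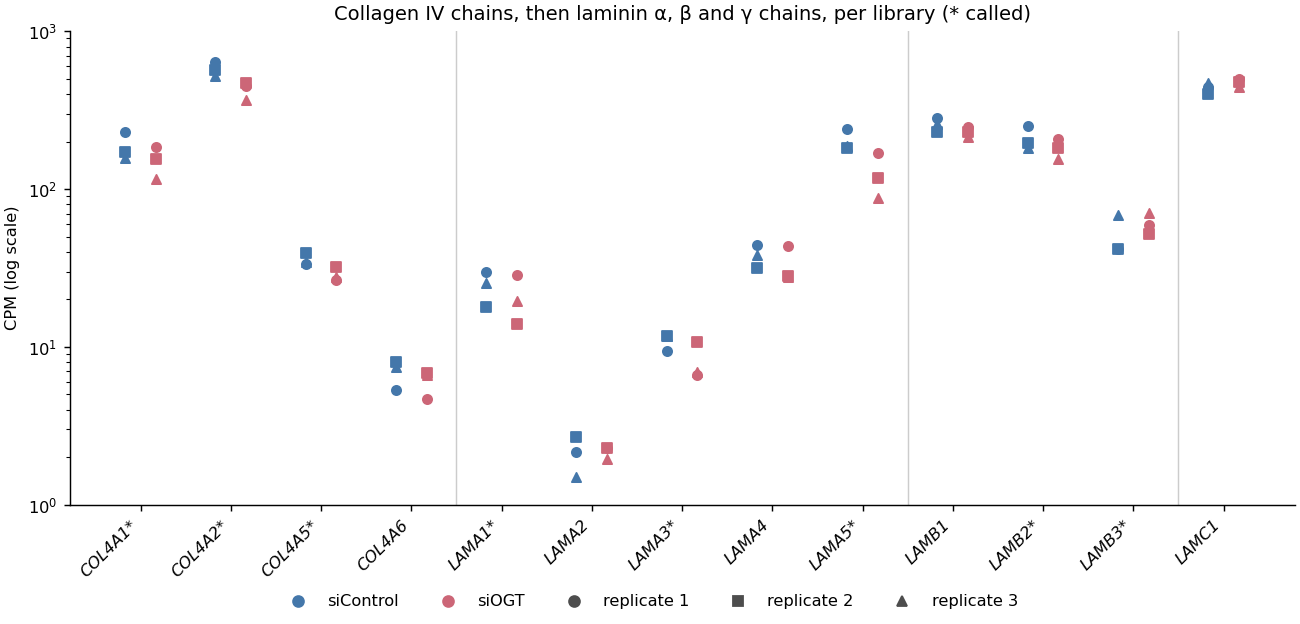
CPM on a log scale of collagen IV chains and laminin α, β and γ chains averaging 1 CPM or more, in 3 siControl (blue) and 3 siOGT (red) libraries, with asterisks on called genes. LAMA5 is the chain whose groups stand furthest apart among the laminins shown, at 183 to 240.1 CPM against 88.4 to 169 CPM, while the LAMC1 groups overlap.

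Other basement membrane glycoproteins gave 2 genes lower and 1 higher of 13 tested (median log2 FC -0.05), and 2 higher without replicate 3. These counts lie near the 12.7% called in each direction over all genes, so they are no result about the list. FBLN2, a fibulin that binds nidogens and perlecan (log2 FC -0.63, edgeR adjusted p = 1.37e-05), and TINAGL1, a matricellular protein (log2 FC -0.58, edgeR adjusted p = 4.31e-04), were lower. SPARC, a collagen-binding protein of the matrix, was higher, at 1375, 1638 and 1385 CPM in siControl and 1679.5, 2494 and 1847 CPM in siOGT (log2 FC 0.44, edgeR adjusted p = 3.67e-04).

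Receptors for basement membrane gave 9 genes lower and 1 higher of 17 tested (median log2 FC -0.19). The count of genes lower was 6, 8 and 7 without replicates 1, 2 and 3, and 2 genes were higher without replicate 3. ITGA7, an α subunit of laminin-binding integrin, had the largest fall of all the listed genes named here (log2 FC -1.05, edgeR adjusted p = 1.48e-06), and its level went from 20.2, 34.0 and 29.7 CPM to 8.33, 19.8 and 13.5 CPM. ITGA1, the α subunit of an integrin that binds collagen IV, was lower (log2 FC -0.59, edgeR adjusted p = 8.01e-05), and so was the collagen receptor kinase DDR2 (log2 FC -0.19, edgeR adjusted p = 0.045). ITGA6, another laminin-binding α subunit, was higher, at 114, 105 and 134 CPM in siControl and 172, 142 and 156 CPM in siOGT (log2 FC 0.42, edgeR adjusted p = 5.05e-04). Both directions thus occurred among the laminin-binding integrins.

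Genes for the folding, modification and export of collagen IV gave 2 lower and 0 higher of 16 tested (median log2 FC 0.0041), but 0 lower without replicate 1 and 1 higher without replicate 3. The count of genes lower lies near the 12.7% called lower over all genes, so it is no result about the list. The genes called with all libraries were P4HA2, a prolyl hydroxylase subunit (log2 FC -0.34, edgeR adjusted p = 0.00303), and PLOD1, a lysyl hydroxylase (log2 FC -0.30, edgeR adjusted p = 0.00235). Heparan sulfate synthesis and editing, which supplies the chains carried by perlecan, agrin and collagen XVIII, gave 8 lower and 1 higher of 18 tested (median log2 FC -0.19), which became 3 lower and 0 higher without replicate 1. SULF2, which removes sulfate groups outside the cell (log2 FC -0.55, edgeR adjusted p = 5.31e-05), FAM20B, a kinase of the linker (log2 FC -0.45, edgeR adjusted p = 1.33e-04), and NDST1, which sulfates the growing chain (log2 FC -0.21, edgeR adjusted p = 0.0205), were lower. HS2ST1, a sulfotransferase, was higher (log2 FC 0.24, edgeR adjusted p = 0.0205).

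Proteases of basement membrane and their inhibitors gave 6 lower and 1 higher of 17 tested (median log2 FC -0.09), and 2 higher and 4 lower without replicate 3. TIMP3, the metalloproteinase inhibitor that binds to matrix, stood at 528, 642 and 553 CPM in siControl and 318, 417 and 366 CPM in siOGT (log2 FC -0.65, edgeR adjusted p = 3.91e-06). ADAMTS4 (log2 FC -0.48, edgeR adjusted p = 0.0471) and the collagen IV-cleaving gelatinase MMP2 (log2 FC -0.28, edgeR adjusted p = 0.0177) were lower. MMP1, a collagenase that acts mainly on fibrillar collagens, was higher, at 47.3, 20.0 and 46.5 CPM in siControl and 102, 32.2 and 67.6 CPM in siOGT (log2 FC 0.78, edgeR adjusted p = 1.17e-05). Its groups overlapped, with library 2 the lowest on both sides.

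**Figure D5:**
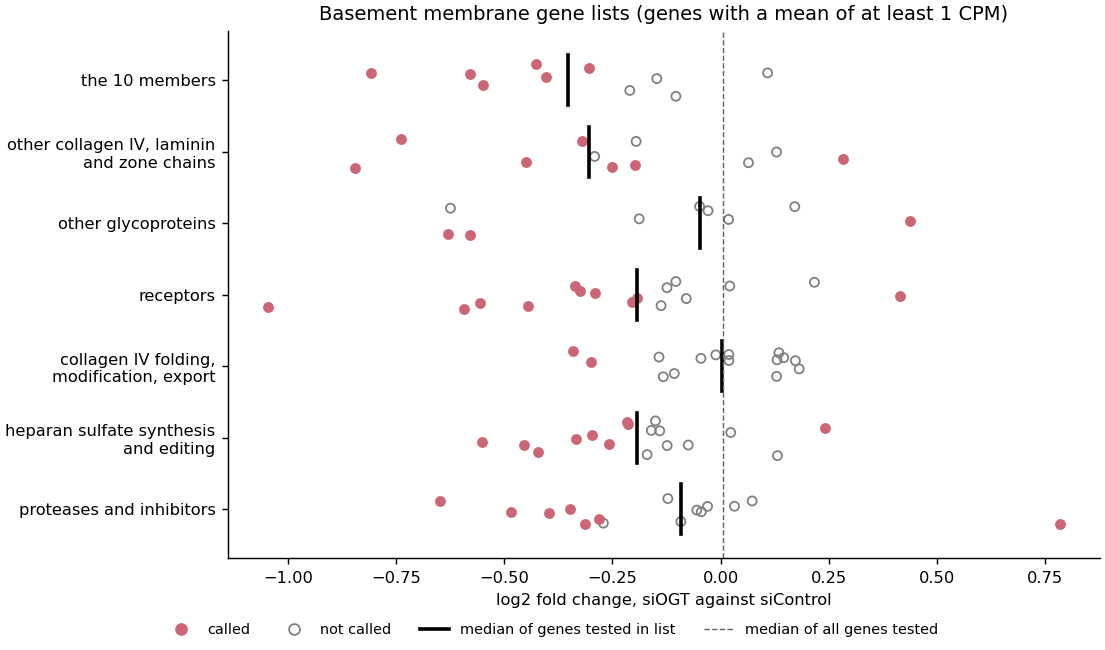
Log2 FC of siOGT against siControl (horizontal axis) of the 10 genes and of 6 lists of other basement membrane genes, for genes averaging 1 CPM or more, with called genes in red, the median of all genes tested in a list as a black bar and the median of all genes tested as a dashed line. The bars of the 10 genes (-0.35) and of the other chains (-0.31) lie furthest to the left, and that of collagen IV folding (0.0041) lies on the dashed line.

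Exons of 4 members overlap a protein-coding gene on the opposite strand, and the authors' counting used strand. RTRAF covers 30.7% of the exonic bases of NID2 and was not called (log2 FC -0.04). SLC19A1 covers 18.5% of those of COL18A1 and was called in the other direction (log2 FC 0.36, edgeR adjusted p = 0.00121). LDLRAD2 covers 11.7% of those of HSPG2 and had too few counts to test, and DLD covers 1.61% of those of LAMB1 and was not called.

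Base composition moved with the calls. The GC content of the longest transcript was 45.1% in LAMA4, 48.8% in LAMC1, 49.4% in LAMB1, 51.5% in NID1 and 52.3% in NID2. It was 55.2% in COL4A1, 61.8% in COL4A2, 64.5% in HSPG2, 67.2% in COL18A1 and 67.9% in AGRN. The 4 members of lowest GC were thus the 4 that were not called. Over all genes averaging 1 CPM or more, the share called lower was 9.75% below 40% GC, 13.1% from 40% to 50%, 17.9% from 50% to 60% and 20.8% above 60%. With an offset for GC and length in the paired fit, 6 members were again called lower, beside 13.8% of all genes, with log2 FC values of -0.73 for COL18A1, -0.57 for NID2, -0.46 for HSPG2, -0.36 for COL4A2, -0.32 for AGRN and -0.27 for COL4A1.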

How the data were processed

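RNA was sequenced from LX-2 cells, 3 siControl and 3 siOGT libraries. The authors selected RNA with oligo-dT, sequenced both ends of fragments, aligned the reads to hg38 with Bowtie2 2.3.5.1 (versions per the submitters' processing notes) and counted strand-specifically with RSEM 1.3.1. The values the authors deposited are RSEM expected counts per gene, not normalized, in which reads that match several genes are shared out. The version of the GENCODE annotation that the authors name was not used here, so lengths, GC and coordinates taken from GENCODE 44 (16337 of 16907 symbols matched) may differ from the gene models used. The authors' own comparison, a table of means, fold changes and p-values made with DESeq2 1.36.0, was not used.

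After rounding of the expected counts, 2054 genes whose total was below 10 were left out. For the remaining 14853 genes edgeR 4.0.16 (R 4.3.3) gave two-sided quasi-likelihood tests with TMM factors (0.979 to 1.02) and the replicate number as a block, as the authors paired their samples. The Benjamini-Hochberg adjustment ran over all genes tested, and a gene is called at an adjusted p of at most 0.05. SE and 95% intervals were derived from the F statistic, and log2 ratios within a pair used a prior count of 2. Deviations from the group means correlated between same-numbered libraries by 0.688, 0.525 and 0.332 over 12373 genes. Differently numbered libraries were not compared in this way, so the pairing rests on the labels and on the authors' own pairing. Replicates differed beyond sampling noise (chi-square per degree of freedom of at least 20.3).

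The genes and lists were chosen with earlier results of these data known. Beside the members and OGT, the genes named are, of each list, the called genes with the 2 highest and the 2 lowest log2 FC among those averaging at least 1 CPM, and the 5 genes whose profile over libraries was most like that of the members. COL4A5, LAMA1 and LAMA3, the overlapping genes and the cell type markers singled out were named after their values were seen. Alternatives were DESeq2 1.42.0, no block, other scaling and filters, leaving out each replicate and, added after seeing the data, an offset for GC and length (a spline with 5 degrees of freedom). Groups and replicate numbers came from the labels. Promoter sequences are those of RefSeq.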

Additional observations from a re-analysis of the deposited data

How the results depend on the processing

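Pairing decided most calls. In edgeR with no replicate block, 59 genes were called lower and 71 higher of all genes tested, 0 members were called, and the member values were -0.30 for COL4A1, -0.42 for COL4A2, -0.79 for COL18A1, -0.56 for NID2, -0.54 for HSPG2 and -0.39 for AGRN on the log2 scale. The lists then held 0 genes called lower or higher in each list, except 1 protease or inhibitor called lower. In DESeq2 with no replicate block, 461 genes were lower and 388 higher, 3 members were lower, and COL4A1 (-0.30), NID2 (-0.56) and AGRN (-0.39) were not called. The lists then held 2 other chains lower and 0 higher, 4 receptors lower, 1 folding gene lower, 1 heparan sulfate gene lower and 0 higher, and 1 protease gene lower and 0 higher. With the block, DESeq2 called 1298 genes lower and 1117 higher, with 4 other chains, 6 receptors, 5 heparan sulfate genes and 5 protease genes lower and 0 heparan sulfate genes higher. Without the block the ratios between members kept their direction, and among members and OGT the block changed no other call.

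Scaling by library totals alone gave 2 glycoproteins, 2 receptors and 1 folding gene called higher. Without a filter on low counts, 2 receptors and 1 folding gene were higher and LAMA4 was called lower (-0.21, edgeR adjusted p = 0.0458). The offset for GC and length gave 2 folding genes higher. Median-ratio size factors and the filter of edgeR's filterByExpr changed no call of a member or of OGT. With filterByExpr 5 other chains and 5 protease genes were lower, and the counts over all genes stayed within 1.5 times under both.

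Leaving out 1 replicate at a time gave 945 to 1787 genes lower and 858 to 1652 higher, the lowest without replicate 1, and 6 to 7 members lower and 0 to 1 higher. The log2 FC ranged from -0.39 to -0.23 for COL4A1, -0.32 to -0.094 for LAMA4, -0.23 to -0.10 for LAMB1 and 0.035 to 0.20 for LAMC1. The counts were 0 to 1 other chains higher, 1 to 2 glycoproteins higher, and 6 to 8 receptors lower and 1 to 2 higher. Folding genes gave 0 to 2 lower and 0 to 1 higher. Heparan sulfate genes gave 3 to 8 lower and 0 to 1 higher, and protease genes 1 to 2 higher.

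Per kilobase of the longest transcript, siControl levels in CPM were 28.6 for COL4A1, 89.5 for COL4A2, 25.3 for COL18A1, 5.26 for LAMA4, 45.4 for LAMB1, 16.0 for NID2, 18.2 for HSPG2 and 45.2 for AGRN, while LAMC1 and NID1 moved by less than 1 SD. The cause of these changes was not tested beyond what each alternative sets by construction. Depth set little limit for the members, whose lowest count was 744, but 3 pairs limit the exact sign-flip test of a ratio to p = 0.25 or more, and 3 against 3 libraries limit the unpaired one to 0.1.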

Other observations

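The members moved together to differing degrees across the 6 libraries. Pearson's r of log2 CPM over the 6 libraries, which share depth, treatment and pair, was 0.99 for COL4A2 with COL18A1, 0.99 for COL4A2 with HSPG2, 0.98 for HSPG2 with AGRN and 0.86 for COL4A1 with COL4A2, which lie head to head. LAMC1 stood apart, at -0.56 with NID2 and 0.02 with COL4A1. These values describe 6 libraries in 2 groups and were not tested.

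The mean standardized profile of the 10 members was highest in siControl library 1 (1.04) and lowest in siOGT library 3 (-1.36), while siOGT library 1 (0.0023) and siControl library 3 (0.19) lay close together. Among 9610 genes averaging at least 10 CPM, those most like this profile over the 6 libraries were FBXO34 (r = 0.995), ANKRD33B (0.994), ARHGEF17 (0.993), PTPRJ (0.993) and ITGB3 (0.991), an integrin subunit that was called lower in siOGT (log2 FC -0.52, edgeR adjusted p = 0.00434). ANKRD33B (log2 FC -0.21) and ARHGEF17 (log2 FC -0.20) were called lower too, and FBXO34 (log2 FC -0.16) and PTPRJ (log2 FC -0.17) were not called.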
